A study of Mus musculus with 4 samples.

Results

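A list of 35 genes typical of myeloid cells was followed through 4 RNA-seq libraries of sorted splenic CD4+ T cells. Members were matched by gene symbol, and all 35 were found among the 55367 symbols counted. The list has 10 neutrophil genes, *S100a8* to *Csf3r*, and 25 macrophage genes, *Lyz2* to *C3*. The question was how much RNA of these genes each library held, and whether it differed between the genotypes. The libraries came from C57BL/6 mice, 2 labelled wild type (WT 1 and WT 2) and 2 labelled as a conditional knockout of *Satb1* (cKO 1 and cKO 2). Per the study's methods, the knockout carried *Satb1* F/F with *Thpok-cre*, a Cre driven by the regulatory elements of a transcription factor of the CD4 T cell lineage. Mice of both sexes were used, with ages given only as a range, and spleen cells were enriched magnetically and then sorted by flow cytometry. The listed gating antibodies were against B220, CD4 and CD8β, and no myeloid marker is named among them. The paper calls its replicates of this comparison biological, and the labels do not say whether the libraries are of separate mice, so p-values measure the spread between these libraries, which may be technical.

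Neutrophils make the proteins of their granules in waves while they mature in the bone marrow. Myeloperoxidase and elastase come first, then lactoferrin, lipocalin 2, neutrophilic granule protein and cathelicidin, and the calcium-binding pair S100A8 and S100A9 fills the cytosol of the mature cell. Macrophages of the splenic red pulp take up old red cells and break down heme with heme oxygenase 1, and they carry VCAM-1 and the transcription factor SPIC. Tissue macrophages also make the chains of complement C1q, lysozyme and the receptors AXL and MERTK, which bind dying cells.

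The libraries held 4495902 to 6555699 counts in genes, so 3 counts, the floor used here, equalled 0.457 to 0.669 counts per 1000000 counts in genes, scaled by TMM (CPM). Lists of 4 values below are in the order WT 1, WT 2, cKO 1 and cKO 2. *Satb1* itself was counted 5677 and 4390 times in WT and 4958 and 3986 times in cKO, a log2 fold change of -0.05 (edgeR adjusted p = 0.877). Which exons the conditional allele removes is not given in the sources used here, so the count over the whole gene does not check the labels, and cKO below means the library labelled so. *Xist*, the RNA of the inactive X chromosome, had 5447 and 4235 counts in WT and 9 and 6 in cKO, while the Y-linked *Ddx3y* had 0 and 0 in WT and 525 and 597 in cKO. Sex-linked expression therefore split exactly with the labels, and the part of sex and that of genotype cannot be told apart in any difference below. The summed CPM of 8 T cell genes lay between 5454 and 5890 in the 4 libraries.

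All 4 libraries had counts of macrophage genes, and 3 had counts of neutrophil genes. The 10 neutrophil genes together were counted 0, 19, 239 and 129 times, which is 0, 4.24, 45.3 and 27.3 CPM. The count of 0 in WT 1 has an exact upper limit of 0.562 CPM. Both cKO libraries lay above both WT libraries, with a mean of 36.3 ± 12.8 CPM (SD, n = 2) against 2.12 ± 2.997 CPM (SD, n = 2). The pooled counts gave a ratio of 21.4, with a 95% exact interval of 13.5 to 36.0 that covers counting error only. The log2 ratio of the mean sums, 4.10, became 3.10 without WT 1 and has no value without WT 2. The 25 macrophage genes were counted 2045, 1571, 2933 and 1907 times, which is 311, 350, 557 and 404 CPM. Their groups did not overlap either, but the pooled ratio was 1.48 (1.42 to 1.55). With 2 libraries a genotype, an exact permutation test of a single value cannot go below p = 0.333, so the sums are given without a test. In bulk RNA, fewer cells of a type and less RNA per cell cannot be told apart.

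Across all genes, 12403 passed the filter on low counts and 533 of them (4.3%) were called at an edgeR adjusted p under 0.05, 291 (2.35%) of them higher in cKO. Of the members, 24 were tested and 10 were called, all higher in cKO. They comprised 4 of 5 neutrophil genes tested and 6 of 19 macrophage genes tested. Each of the 5 neutrophil genes tested passed the filter only through the cKO libraries, as did *Cd5l*, *Spi1* and *C3* of the macrophage genes. Such a gene had to differ in order to be tested, so the share called among these is no measure of the list: of all 161 genes that passed in this way, 44 (27.3%) were called higher. Both cKO libraries lay above both WT libraries in 9 of 10 neutrophil and 15 of 25 macrophage genes, and in 12 of the 19 macrophage genes tested, where 24.8% of all genes tested did so. Without a filter, 6 neutrophil and 13 macrophage genes were called higher, where 2.86% of the 23880 genes were. The median log2 pooled ratio was 1.27 over all 25 macrophage genes and 4.03 over the 8 neutrophil genes with a ratio, *Mpo* at its lower bound. These include members too low to test. Over all genes tested the median log2 pooled ratio was -0.0025.

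**Figure D1:**
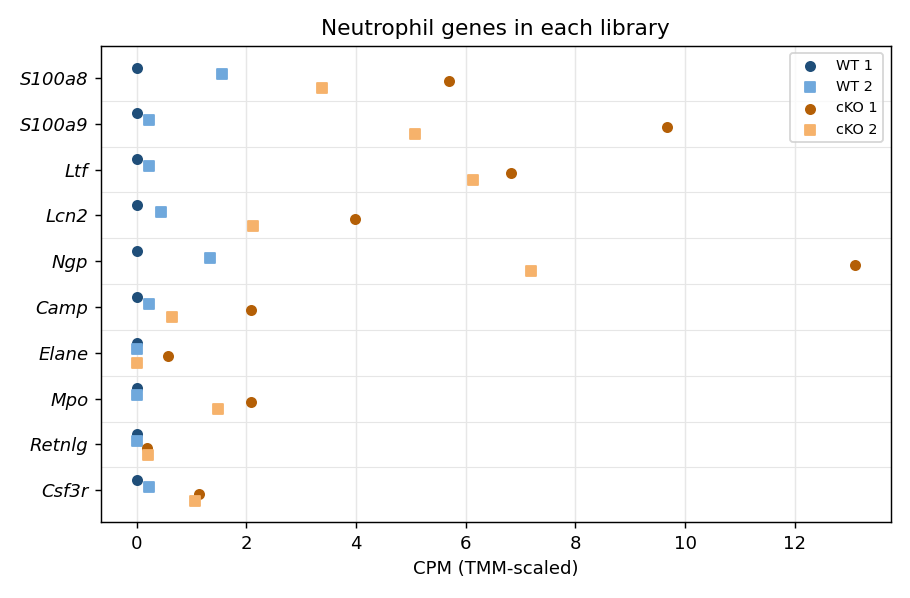
CPM, scaled by TMM (horizontal axis), of each of the 10 neutrophil genes (rows) in WT 1, WT 2, cKO 1 and cKO 2, 1 point a library. All WT 1 points lie at 0, and *Ngp* in cKO 1, at 13.1 CPM, is the highest point.

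Among the granule and cytosol genes, *S100a9*, *Ltf*, *Ngp* and *Lcn2* rose in cKO. *S100a9*, which encodes the partner of S100A8 in calprotectin, had 0 and 1 counts in WT and 51 and 24 in cKO, or 0, 0.223, 9.68 and 5.08 CPM. The pooled ratio was 82.9, with a counting interval of 14.4 to 3318, and the edgeR adjusted p was 0.0057. *Ltf*, lactoferrin, an iron-binding protein of the specific granules, had 0, 1, 36 and 29 counts, a pooled ratio of 71.8 (12.4 to 2881; edgeR adjusted p = 0.00332). Both genes were near 0 in WT and clear of it in both cKO libraries, and they stayed called in 11 of 11 alternative analyses at the same threshold. The single count of each in WT leaves the size of the ratio poorly known: the fitted log2 fold change of *S100a9*, 6.02, became 4.91 without WT 1 and 8.36 without WT 2, and that of *Ltf*, 5.83, became 4.72 and 8.17.

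*Ngp*, neutrophilic granule protein, was the neutrophil gene with the most CPM in both cKO libraries, with 0, 6, 69 and 34 counts, or 0, 1.34, 13.1 and 7.2 CPM. Its pooled ratio was 19.0 (8.43 to 52.9; edgeR adjusted p = 0.019). It was called in 10 of 11 alternatives, whose adjusted p ran from 4.93e-18 to 0.456. The exception was DESeq2, at 0.456. Its fitted log2 fold change, 4.15, became 2.91 without WT 1 and 8.82 without WT 2. *Lcn2*, lipocalin 2, which binds bacterial siderophores, had 0, 2, 21 and 10 counts and a pooled ratio of 17.1 (4.36 to 148; edgeR adjusted p = 0.0417). Its groups did not overlap, but the call was lost without cKO 1 (edgeR adjusted p = 0.0573) and without WT 1 (0.083), and the adjusted p over 9 alternatives that gave one ran from 4.67e-05 to 0.083. Its fitted log2 fold change, 3.91, became 2.72 without WT 1 and 7.10 without WT 2.

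*S100a8*, the other chain of calprotectin, differed from *S100a9* in WT 2, where it had 7 counts against 1. Its counts were 0, 7, 30 and 16, or 0, 1.56, 5.69 and 3.39 CPM, with both cKO libraries above WT. The pooled ratio of 7.26 (3.26 to 19.1) did not pass the test (edgeR adjusted p = 0.108, and 1.88e-05 to 0.839 over 11 alternatives). It did pass without the filter (edgeR adjusted p = 1.88e-05) and with the replicate block (0.0136). Its fitted log2 fold change, 2.77, became 1.54 without WT 1 and 7.66 without WT 2. The pair lies close together on chromosome 3, *S100a8* at chr3:90668978-90670035 on the plus strand and *S100a9* at chr3:90692632-90695721 on the minus strand (GRCm38). *Ngp* (chr9:110419747-110423012), *Ltf* (chr9:111019271-111042767) and *Camp* (chr9:109847379-109849617) share chromosome 9, and *Lcn2* lies at chr2:32384633-32388252.

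The other 5 neutrophil genes were too low for the filter. *Camp*, the cathelicidin antimicrobial peptide, had 0, 1, 11 and 3 counts. *Mpo*, myeloperoxidase of the first granules, had 0, 0, 11 and 7, at least 6.63-fold higher in cKO when WT is set to the floor of 3 counts over the group, and it was called in the 2 alternatives that kept it (edgeR adjusted p = 0.000878 without a filter and 0.0279 with a filter of at least 1 CPM in 2 libraries). *Csf3r*, the receptor for granulocyte colony-stimulating factor, had 0, 1, 6 and 5. All 3 had more counts in both cKO libraries than in either WT library. *Elane*, neutrophil elastase, had 3 counts in cKO 1 and 0 elsewhere, and *Retnlg*, a resistin-like protein of mature neutrophils, had 1 count in each cKO library and 0 in WT, both too few for a ratio. *Mpo* shares 512 exonic bases with *Gm11505* on the opposite strand, and the strand setting of the counting is not given in the sources used here.

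The promoter windows of the 5 neutrophil genes tested are shown with those of *Lyz2* and *C3*, the macrophage genes called with the largest ratios, so that the sequence upstream of genes that were high together can be read. The set of RefSeq (GRCm38.p6) promoter windows used here covered 26 of the 35 members. It held none for *Vcam1*, *Tyrobp*, *Hmox1*, *Cd14*, *Adgre1*, *Lst1*, *C1qa*, *Csf1r* and *Spi1*. Each window is the 250 bases before the annotated start, 5′ to 3′ on the strand of the gene. These RefSeq starts are not all those of the GENCODE genes whose coordinates are given here: the *Lcn2* window lies inside the GENCODE gene, those of *S100a8*, *Ngp*, *Ltf* and *Lyz2* run past its start, and those of *S100a9* and *C3* end at it. Capitals mark GAGGAA, the core bound by PU.1, the transcription factor encoded by *Spi1*, and TTGCNNAA, a core of sites bound by C/EBP factors, searched on both strands, so that TTCCTC is GAGGAA on the other strand. In the windows shown no match to one overlaps a match to the other, and a match describes the letters only.
S100a8, chr3:90668821-90669070, plus strand: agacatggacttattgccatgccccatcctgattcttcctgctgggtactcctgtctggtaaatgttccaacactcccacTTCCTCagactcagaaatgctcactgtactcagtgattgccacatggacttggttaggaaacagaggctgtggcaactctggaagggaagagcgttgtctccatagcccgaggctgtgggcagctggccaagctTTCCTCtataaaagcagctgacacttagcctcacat
S100a9, chr3:90695722-90695971, minus strand: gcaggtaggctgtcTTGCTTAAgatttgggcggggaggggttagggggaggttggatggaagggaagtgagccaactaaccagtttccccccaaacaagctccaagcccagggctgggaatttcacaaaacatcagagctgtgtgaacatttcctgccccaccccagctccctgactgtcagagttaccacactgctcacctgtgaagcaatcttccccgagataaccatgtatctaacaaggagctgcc
Ltf, chr9:111019042-111019291, plus strand: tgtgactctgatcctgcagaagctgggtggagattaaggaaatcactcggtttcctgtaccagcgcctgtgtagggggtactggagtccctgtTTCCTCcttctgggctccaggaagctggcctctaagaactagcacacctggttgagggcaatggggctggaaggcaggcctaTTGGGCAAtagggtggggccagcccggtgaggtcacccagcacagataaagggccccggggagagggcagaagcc
Lcn2, chr2:32387740-32387989, minus strand: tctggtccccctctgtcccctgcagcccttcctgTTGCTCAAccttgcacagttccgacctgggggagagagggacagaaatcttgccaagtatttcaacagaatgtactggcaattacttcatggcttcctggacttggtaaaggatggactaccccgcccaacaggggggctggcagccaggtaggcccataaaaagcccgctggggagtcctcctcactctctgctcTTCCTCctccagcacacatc
Ngp, chr9:110419558-110419807, plus strand: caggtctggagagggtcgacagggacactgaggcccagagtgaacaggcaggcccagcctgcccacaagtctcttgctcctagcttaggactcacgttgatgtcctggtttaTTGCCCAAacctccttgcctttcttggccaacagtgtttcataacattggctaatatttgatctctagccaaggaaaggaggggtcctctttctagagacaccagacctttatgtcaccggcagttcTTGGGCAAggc
Lyz2, chr10:117282273-117282522, minus strand: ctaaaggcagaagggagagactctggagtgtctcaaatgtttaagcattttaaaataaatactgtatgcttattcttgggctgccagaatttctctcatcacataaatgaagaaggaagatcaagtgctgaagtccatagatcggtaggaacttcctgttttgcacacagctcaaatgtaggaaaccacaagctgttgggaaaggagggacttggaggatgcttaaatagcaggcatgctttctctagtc
C3, chr17:57228137-57228386, minus strand: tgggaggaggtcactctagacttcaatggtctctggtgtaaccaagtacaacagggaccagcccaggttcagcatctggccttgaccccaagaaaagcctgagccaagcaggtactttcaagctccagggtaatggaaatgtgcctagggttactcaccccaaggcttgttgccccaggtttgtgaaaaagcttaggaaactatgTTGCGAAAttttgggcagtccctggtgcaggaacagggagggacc

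TTGCNNAA occurred in all 4 neutrophil genes that were called, 1 match each in *S100a9*, *Ltf* and *Lcn2* and 2 in *Ngp*, and not in *S100a8*, which had 2 matches to GAGGAA. Without the filter *S100a8* and *Mpo* were called as well, and neither has TTGCNNAA, so that 4 of 6 called genes had it. Over the list, TTGCNNAA was in 5 of 10 neutrophil windows and 4 of 16 macrophage windows, against 9.56% of all 32851 windows of this length. GAGGAA was in 6 of 10 and 8 of 16, against 23.3% of all windows. *C3* had 1 match to TTGCNNAA and *Lyz2* had neither motif. These shares were not tested.

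**Figure D2:**
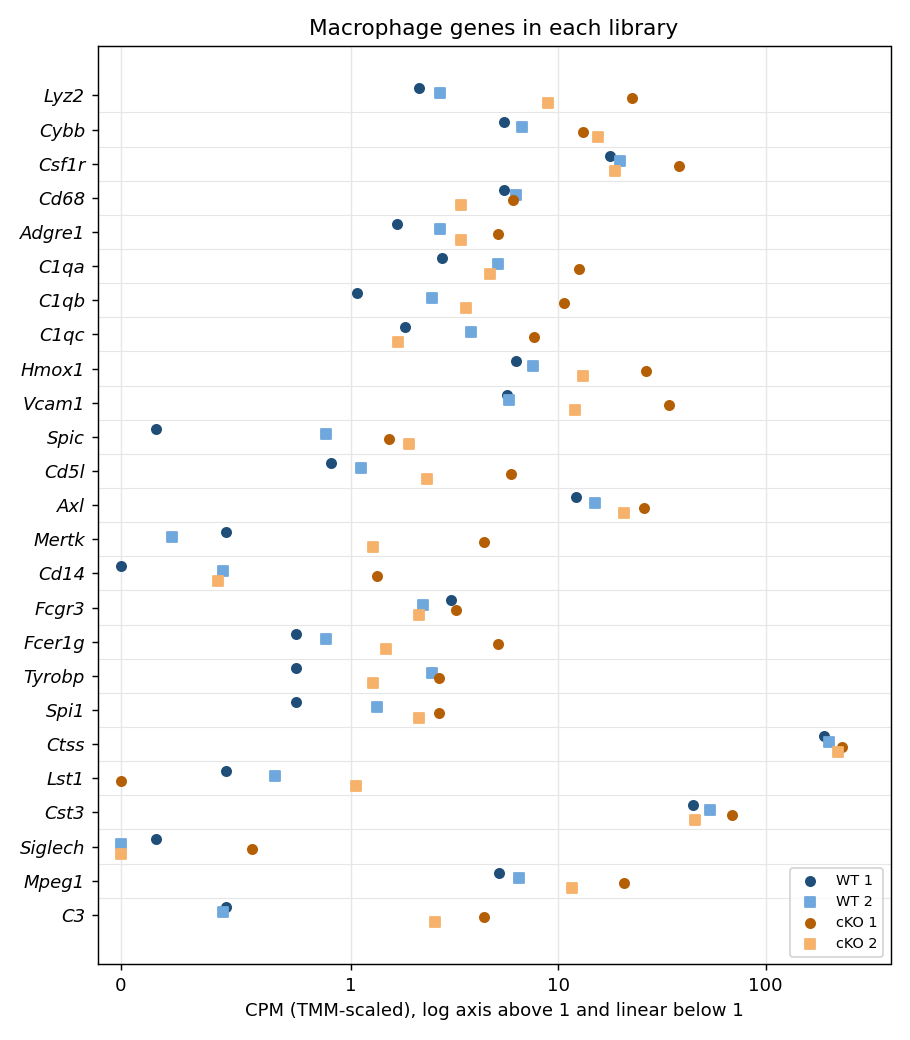
CPM, scaled by TMM (horizontal axis, logarithmic above 1 and linear below), of each of the 25 macrophage genes (rows), 1 point a library. For most genes the cKO 1 point lies farthest right, and *Ctss* lies far above the rest in all 4 libraries, followed by *Cst3*.

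The macrophage genes spanned a wide range of levels. *Ctss*, cathepsin S, a lysosomal protease that trims the invariant chain of MHC class II, took 61.6%, 57.5%, 41.9% and 55.5% of the macrophage sum in that order. Its 1259, 903, 1228 and 1059 counts, or 192, 201, 233 and 224 CPM, placed both cKO libraries above WT by a pooled ratio of 1.17 (1.10 to 1.24) that did not pass the test (edgeR adjusted p = 0.254). *Cst3*, cystatin C, a secreted inhibitor of such proteases, had 292, 242, 364 and 215 counts, or 44.5, 54.0, 69.1 and 45.5 CPM, with overlapping groups (edgeR adjusted p = 0.584, and 0.0247 without cKO 2). Per kilobase of exon, these were also the highest 2 members, at 168 and 45.2 CPM per kb in the cKO mean. Without them the macrophage sum was 75.2, 95.04, 254 and 134 CPM, and the ratio of the group means went from 1.45 to 2.28.

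Of the other lysosomal and antimicrobial genes, *Lyz2*, *Mpeg1* and, among the oxidase genes, *Cybb* rose in cKO. *Lyz2*, lysozyme M, the classic myeloid lysozyme (chr10:117277331-117282321), had 14, 12, 119 and 42 counts, or 2.13, 2.68, 22.6 and 8.89 CPM. The pooled ratio was 6.84 (4.50 to 10.8; edgeR adjusted p = 0.0178), and the call was kept in 11 of 11 alternatives. Without cKO 1 the fitted log2 fold change went from 2.73 to 1.90. A close copy, *Lyz1*, may share its reads, so its level is uncertain. *Mpeg1*, perforin-2, a pore-forming protein of phagocytes (chr19:12460779-12465283), had 34, 29, 109 and 55 counts, or 5.18, 6.47, 20.7 and 11.6 CPM, a pooled ratio of 2.88 (2.14 to 3.91; edgeR adjusted p = 0.0388). Leaving out WT 2 (adjusted p = 0.105) or cKO 1 (0.0583) ended that call in edgeR. *Cybb*, the catalytic subunit of the phagocyte NADPH oxidase (chrX:9435252-9487771), had 36, 30, 69 and 73 counts, or 5.48, 6.69, 13.1 and 15.5 CPM, a pooled ratio of 2.38 (1.76 to 3.23; edgeR adjusted p = 0.0292). Its call was lost without either WT library (edgeR adjusted p = 0.118 and 0.115) and with DESeq2 (0.0627). *Cd68*, the lysosomal glycoprotein used to stain macrophages, had 36, 28, 32 and 16 counts, or 5.48, 6.25, 6.07 and 3.39 CPM, with overlapping groups and a log2 fold change of -0.29 (edgeR adjusted p = 0.722).

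*Hmox1* and *Vcam1*, both abundant in red pulp macrophages, rose in cKO. *Hmox1*, heme oxygenase 1 (chr8:75093621-75100589), had 41, 34, 139 and 62 counts, or 6.24, 7.59, 26.4 and 13.1 CPM, a pooled ratio of 2.96 (2.26 to 3.92; edgeR adjusted p = 0.0435). *Vcam1*, an adhesion molecule (chr3:116109949-116129688), had 37, 26, 180 and 57 counts, or 5.64, 5.80, 34.2 and 12.1 CPM, a pooled ratio of 4.16 (3.14 to 5.58; edgeR adjusted p = 0.0435). In both genes the cKO libraries lay above WT and cKO 1 above cKO 2. Without WT 2 neither call held (edgeR adjusted p = 0.108 and 0.116), and without cKO 1 that of *Hmox1* was lost as well (0.0601). Without cKO 1 the fitted log2 fold change of *Vcam1* went from 2.03 to 1.08 and that of *Hmox1* from 1.54 to 0.94. *Cd5l*, a secreted apoptosis inhibitor of macrophages, had 6, 5, 31 and 11 counts, a pooled ratio of 4.22 (2.14 to 9.09), and did not pass the test (edgeR adjusted p = 0.092), though it did without the filter (0.0019) and with the replicate block (0.0173). Its fitted log2 fold change, 2.03, became 1.20 without cKO 1 and 2.53 without cKO 2. *Spic*, the transcription factor of red pulp macrophages, had 1, 4, 8 and 9 counts and was not tested. *Spi1*, which encodes PU.1, had 5, 6, 14 and 10 counts (edgeR adjusted p = 0.229), with both cKO libraries above WT.

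Of the complement genes, *C3*, the central component of the cascade (chr17:57203970-57228136), rose. Its counts were 3, 2, 23 and 12, a pooled ratio of 7.74 (3.02 to 25.3; edgeR adjusted p = 0.0276), and the 2 cKO libraries were both far above WT. The call was lost without WT 2 (edgeR adjusted p = 0.137) and without cKO 1 (0.0536). The chains of C1q, which starts the classical pathway, are encoded side by side in chr4:136880129-136898803, and did not pass the test. *C1qa* had 18, 23, 66 and 22 counts, or 2.74, 5.13, 12.5 and 4.66 CPM. *C1qb* had 7, 11, 56 and 17 counts, or 1.07, 2.45, 10.6 and 3.60 CPM, and *C1qc* 12, 17, 40 and 8 counts, or 1.83, 3.79, 7.59 and 1.69 CPM. All 3 were highest in cKO 1, while cKO 2 lay within the range of WT for *C1qa*, above it for *C1qb* and below it for *C1qc*. The edgeR adjusted p was 0.242, 0.0962 and 0.556 in that order. Without cKO 2 all 3 passed (edgeR adjusted p = 0.00245, 0.000272 and 0.0278), and without the filter *C1qa* (0.00542) and *C1qb* (5.48e-06) did.

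The surface receptors other than *Vcam1* did not pass the test or were too low for it. *Csf1r*, the receptor for the macrophage growth factor M-CSF, had 116, 89, 201 and 89 counts, or 17.7, 19.9, 38.1 and 18.8 CPM (edgeR adjusted p = 0.296), so that only cKO 1 stood above WT. It shares 873 exonic bases with *Hmgxb3* on the opposite strand. *Axl* had 80, 67, 136 and 98 counts, or 12.2, 14.9, 25.8 and 20.7 CPM. *Adgre1*, the F4/80 antigen, had 11, 12, 27 and 16 counts, or 1.68, 2.68, 5.12 and 3.39 CPM, with both cKO libraries above WT in each (edgeR adjusted p = 0.068 and 0.245). *Axl* and *Csf1r* passed without the filter (edgeR adjusted p = 0.00372 and 0.0235) and without cKO 2 (0.00462 and 0.000351). *Mertk*, too low to test, had 3, 1, 23 and 6 counts and passed without a filter (edgeR adjusted p = 0.00136) but not with a filter of 1 CPM in 2 libraries (0.0856), and *Cd14*, the co-receptor for endotoxin, 0, 2, 7 and 2. *Fcgr3*, a low-affinity IgG receptor, had 20, 10, 17 and 10 counts and a log2 fold change of 0.0014. Of the adaptors that carry the signal of such receptors, *Fcer1g* had 5, 4, 27 and 7 counts (edgeR adjusted p = 0.00879 without a filter and 0.152 with a filter of 1 CPM in 2 libraries), and *Tyrobp* 5, 11, 14 and 6 with overlapping groups. *Siglech*, a receptor known from plasmacytoid dendritic cells, had at most 3 counts, and *Lst1* at most 5.

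**Figure D3:**
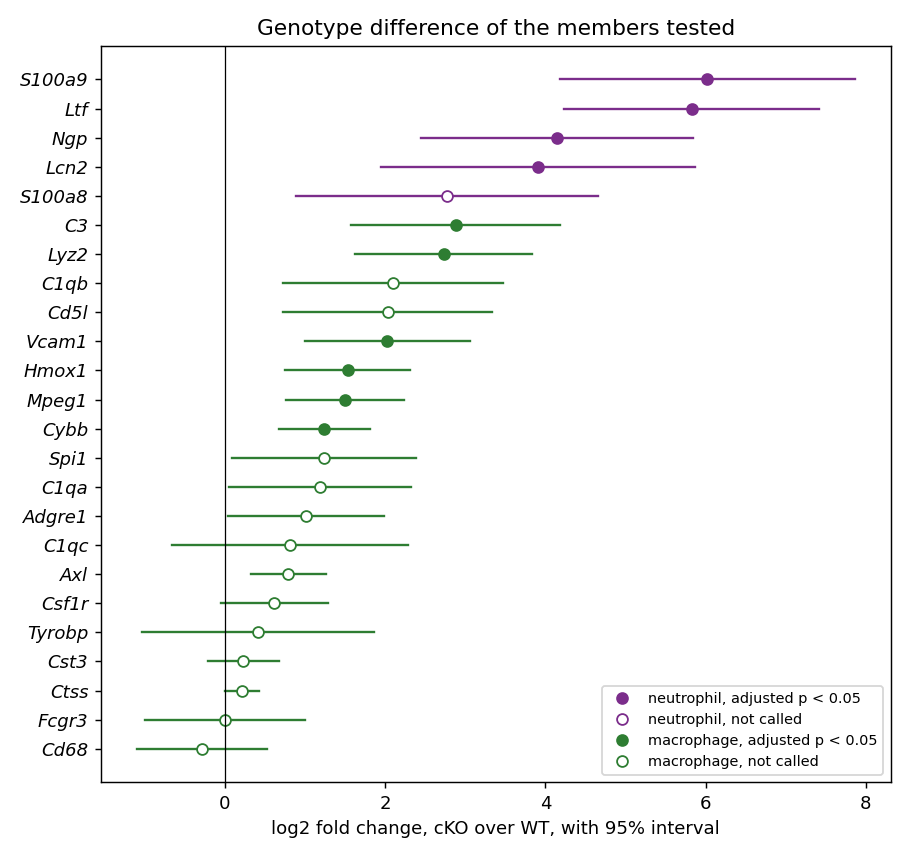
Log2 fold change, cKO over WT (horizontal axis), with the 95% interval of the edgeR fit for each of the 24 members tested (rows), filled where called. The 5 neutrophil genes lie between 2.77 and 6.02 and the 19 macrophage genes between -0.29 and 2.88.

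The cKO libraries differed from each other. Of the 10 neutrophil genes, 9 had more CPM in cKO 1 than in cKO 2, and of the 25 macrophage genes, 22. Over all genes tested, 51.1% were higher in cKO 1, with a median ratio of 1.005. The neutrophil sum was 1.66 times as high in cKO 1 (counting interval 1.34 to 2.07), and the macrophage sum without *Ctss* and *Cst3* 1.90 times (1.73 to 2.09). Among single genes the ratio of cKO 1 to cKO 2 was 4.48 (2.07 to 11.1) for *C1qc*, 2.83 (2.09 to 3.88) for *Vcam1*, 2.54 (1.77 to 3.70) for *Lyz2* and 2.01 (1.48 to 2.76) for *Hmox1*. It was near 1 for *Ctss*, at 1.04 (0.957 to 1.13), for *Ltf*, at 1.11 (0.663 to 1.88), and for *Cybb*, at 0.847 (0.601 to 1.19). The WT libraries differed too. The macrophage sum was 1.13 times as high in WT 2 as in WT 1 (1.05 to 1.20), and 1.26 times (1.11 to 1.44) without *Ctss* and *Cst3*. The complement genes were 1.94 times as high (1.26 to 3.003). For the neutrophil genes, the counting interval of their sum in WT 2, 2.55 to 6.62 CPM, lies above the upper limit in WT 1. In WT 2, *S100a8* and *Ngp* gave 7 and 6 of those 19 counts.

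**Figure D4:**
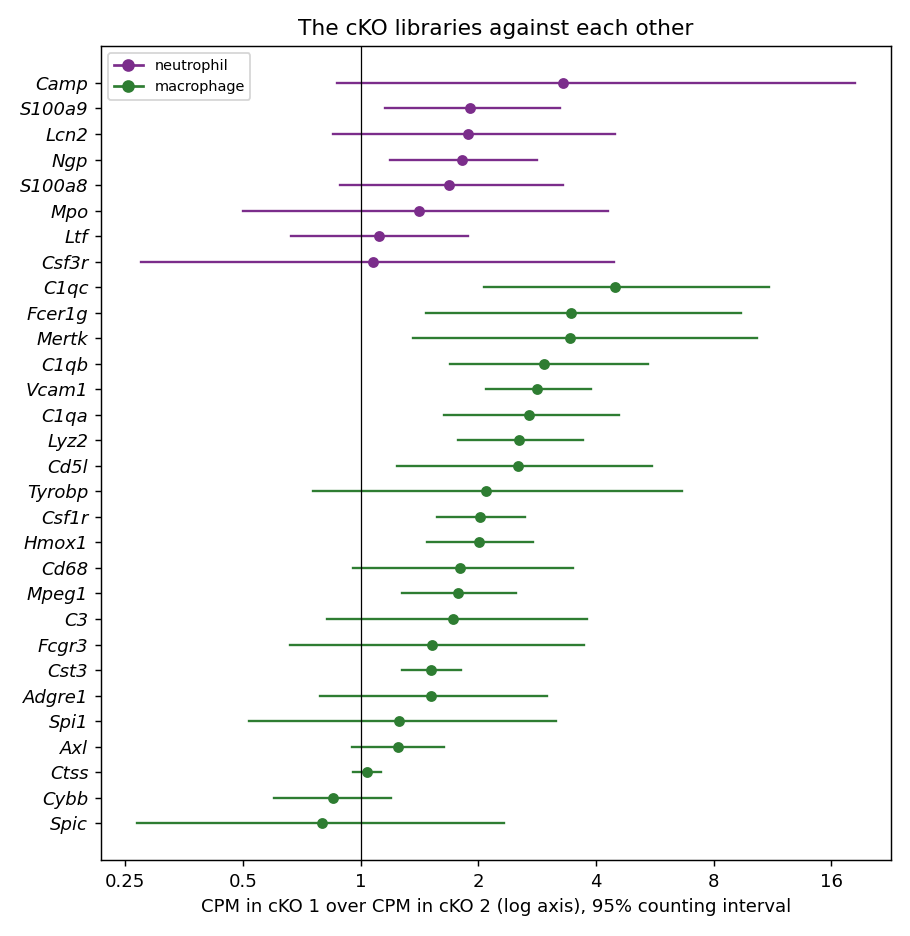
CPM in cKO 1 over CPM in cKO 2 (horizontal axis, logarithmic) with 95% counting intervals, for members with at least 10 counts over both cKO libraries and some in each (rows). Most points lie to the right of 1, with *C1qc* farthest right at 4.48, *Spic* farthest left at 0.797 and *Cybb* at 0.847.

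The neutrophil genes made up a larger share of the myeloid counts in cKO. Of the counts of all 35 members, the neutrophil genes had 0% in WT 1 (exact 95% interval 0 to 0.18%), 1.19% in WT 2 (0.721 to 1.86%), 7.53% in cKO 1 (6.64 to 8.51%) and 6.34% in cKO 2 (5.32 to 7.48%). Without *Ctss* and *Cst3*, a choice made after seeing the data, the shares were 0% (0 to 0.744%), 4.27% (2.59 to 6.59%), 15.1% (13.4 to 17.0%) and 16.9% (14.3 to 19.8%). In both versions the intervals of the cKO libraries overlap each other and lie above those of WT, and the order of cKO 1 and cKO 2 differs between the versions. Within the neutrophil sum of cKO 1 and cKO 2, *Ngp* took 28.9% and 26.4%, *S100a9* 21.3% and 18.6%, *S100a8* 12.6% and 12.4%, *Lcn2* 8.79% and 7.75%, *Camp* 4.603% and 2.33%, and *Ltf* 15.1% and 22.5%. Among the macrophage genes by role, the complement genes summed to 6.09, 11.8, 35.1 and 12.5 CPM, and *Hmox1* with *Cd5l* to 7.16, 8.70, 32.3 and 15.5 CPM. The 8 surface receptors summed to 40.8, 46.2, 113 and 58.8 CPM. In these roles cKO 1 was highest and cKO 2 next. The adaptors, at 1.98, 4.02, 7.78 and 3.81 CPM, had cKO 2 below WT 2, and *Cybb*, the one oxidase gene, was highest in cKO 2. The lysosomal and antimicrobial genes summed to 249.01, 271, 351 and 294 CPM and the transcription factors to 0.914, 2.23, 4.17 and 4.02 CPM.

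Genes of the same cell types outside the members were read for comparison, from lists drawn up with earlier results of these data known. Of 22 other neutrophil genes, 3 were tested and none was called by edgeR, none had an unadjusted p under 0.05, and DESeq2 called 0. Their sum was 20.1, 23.6, 24.9 and 21.8 CPM, with overlapping groups and a pooled ratio of 1.09 (0.903 to 1.31). All 3 tested had a negative log2 fold change. Both cKO libraries lay above WT in 7 of the 22, where 24.8% of all genes tested did so. The most abundant, *Pglyrp1*, a peptidoglycan-binding granule protein, ran the other way from the members, at 86, 71, 26 and 61 counts (edgeR adjusted p = 0.355). Those were part of 132, 106, 131 and 103 counts for the whole list, so the sum does not describe its other genes. The others tested were *Itgam*, an integrin chain of myeloid cells, at 14, 10, 7 and 5 counts (edgeR adjusted p = 0.374), and *Padi4*, a histone-modifying enzyme, at 13, 13, 10 and 10 (0.818). *Itgam* shares 3450 of its 5024 exonic bases with *Gm49368* on the same strand, so its level is uncertain. *Ly6g*, the surface antigen that defines mouse neutrophils, had 1 count in all, in cKO 2, and *Ctsg*, *Cebpe*, *Wfdc21* and *Stfa2l1* had 0 in every library. *Cxcr2*, the chemokine receptor of mature neutrophils, had 0, 0, 17 and 4 counts, and *Chil3*, a chitinase-like protein, 0, 1, 14 and 3. *Hp*, haptoglobin, had 0, 0, 9 and 2. These 3 were picked after their values were seen, and each was highest in cKO 1. Of 22 other macrophage genes, 8 were tested and all had a positive log2 fold change, but edgeR called none, 6 had an unadjusted p under 0.05 and DESeq2 called 1. Their sum was 70.8, 94.1, 202 and 101 CPM, so that cKO 2 lay close to WT 2. The most abundant, *Lgmn*, a lysosomal protease, had 197, 183, 312 and 199 counts (edgeR adjusted p = 0.195). *Apoe*, apolipoprotein E, had 81, 87, 242 and 110 counts (edgeR adjusted p = 0.0904), and *Slc40a1*, the iron exporter ferroportin, 23, 19, 85 and 28 (0.112).

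Markers of other cells moved in several directions. The 10 B cell genes summed to 15.2 and 17.6 CPM in WT and 64.5 and 26.9 CPM in cKO, 2.40 times as high in cKO 1 as in cKO 2 (1.95 to 2.97). Both cKO libraries lay above WT in 7 of 10, where 24.8% of all genes tested did so. Of 4 tested, *Pax5*, the transcription factor of B cell identity, was called, at 5, 4, 53 and 15 counts (edgeR adjusted p = 0.0407). *Ebf1*, another such factor, had 6, 3, 15 and 0 counts, with overlapping groups. The most abundant, *Cd79b*, a chain of the B cell receptor complex, had 37, 27, 70 and 23 counts (edgeR adjusted p = 0.459), and *Cd22* 30, 17, 48 and 50 (0.0529). The 8 erythroid genes, globins among them, ran otherwise, at 114, 349, 16.5 and 246 CPM, lowest in cKO 1, with *Slc4a1* at 0 there. The most abundant, *Hbb-bs*, a beta globin, had 317, 827, 35 and 432 counts. None was called by edgeR or by DESeq2, and none had an unadjusted p under 0.05. Of 7 monocyte genes, 4 were tested and 2 were called, both lower in cKO, where 242 of all 12403 genes tested were. *Ly6c2* fell from 165 and 119 counts to 34 and 32 (edgeR adjusted p = 0.00151) and *Ms4a4c* from 317 and 210 to 70 and 75 (0.000695). *Fn1*, fibronectin, had 3, 3, 23 and 6 counts and was not tested. Both called monocyte genes are also known from lymphocytes. The monocyte list summed to 104 and 109 CPM in WT and 42.3 and 52.9 CPM in cKO. The part of any other cell type in the member genes' differences was not tested.

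**Figure D5:**
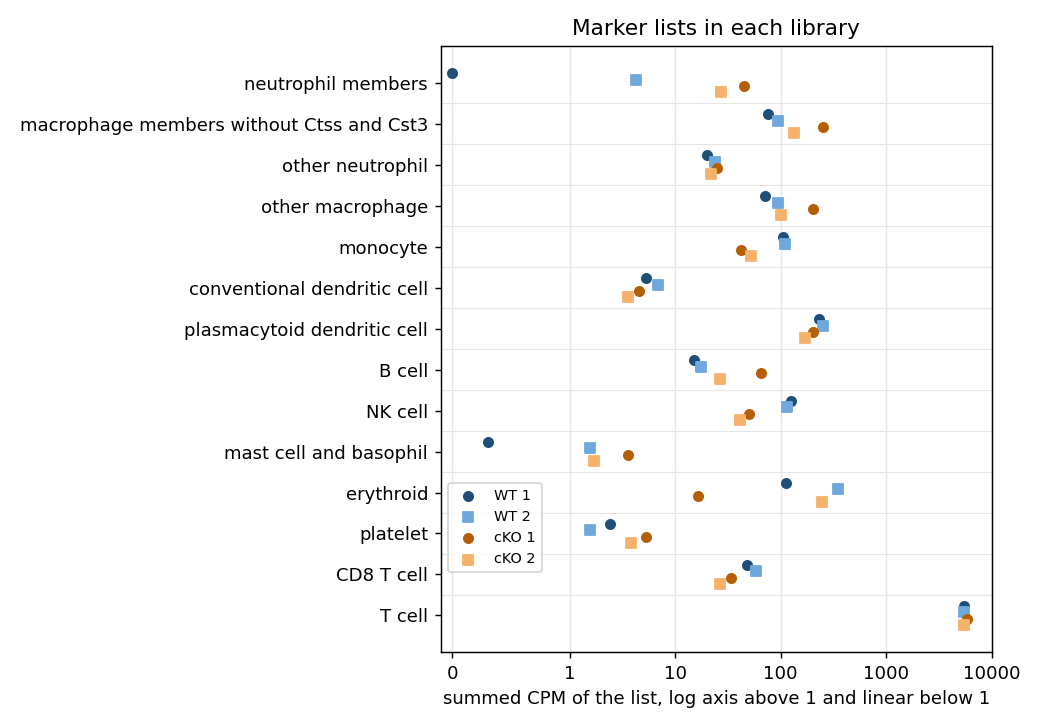
Summed CPM of each marker list (horizontal axis, logarithmic above 1 and linear below) in the 4 libraries, 1 point a library. The neutrophil members go from 0 in WT 1 to 45.3 CPM in cKO 1, while the T cell list stays between 5454 and 5890 CPM.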

How the data were processed

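The authors deposited 1 table of read counts per library, 4 in all, made with HISAT2 2.1.0 on mm10 and HTSeq 0.11.1 per the submitters' processing notes. The annotation and strand setting of the counting are not given in the sources used here. Rows that name no gene were left out of library sizes. Reads outside any feature were 59.4% to 64.5% of uniquely aligned reads. Counts were tested with edgeR 4.0.16 (R 4.3.3), by the quasi-likelihood F test of cKO against WT after filterByExpr and TMM scaling. P-values were adjusted by Benjamini-Hochberg over all 12403 genes tested, and called means an adjusted p under 0.05. CPM values are scaled by TMM. The pooled ratio is total cKO over total WT counts per effective library size, with an exact conditional binomial interval at 95%. Intervals and the floor of 3 counts cover counting error only, and reads carry no molecular identifiers. Exonic lengths and coordinates are from GENCODE M21 (GRCm38). Alternatives were DESeq2 1.42.0, other scaling and filters, thinned libraries, a replicate block and leaving out each library. The fit was tested on simulated data. The members and lists were chosen with earlier results of these data known. All 35 members are named, those called or with at least 10 counts in a library with every count. Genes of the other lists were named where called or most abundant in their list. *Itgam*, *Padi4*, *Klrk1*, *Cd22*, *Ly6g*, *Ctsg*, *Cebpe*, *Wfdc21*, *Stfa2l1*, *Cxcr2*, *Chil3*, *Hp*, *Apoe*, *Slc40a1*, *Ebf1*, *Slc4a1*, *Fn1* and *Cd8a* were chosen after their values were seen.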

Additional observations from a re-analysis of the deposited data

How the results depend on the processing

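With 2 libraries a genotype, each call rests on 1 pair of spreads. Where 1 library was left out, the lone library of its group was assumed to vary like the others. All genes called, 533, became 1367 without the low-count filter, 1165 with the replicate block and 153 at an adjusted p under 0.01, and ran from 174 to 1583 when 1 library was left out. The deviations of same-numbered libraries correlated at 0.0642 across genes, so the numbers were not taken to pair them. Neutrophil genes called, 4, became 2 with DESeq2 and 2 at an adjusted p under 0.01, and 3 to 5 with 1 library left out. Macrophage genes called, 6, became 13 without the filter and 0 at an adjusted edgeR p under 0.01, where 13 had an unadjusted p under 0.05 and DESeq2 gave 3 an adjusted p under 0.01. With 1 library left out they ran from 1, without WT 2, over 3, without cKO 1, to 13, without cKO 2. The log2 ratio of the macrophage sum, 0.54, became 0.90 without *Ctss* and 1.19 without *Ctss* and *Cst3*, the last chosen after seeing the data. It ran from 0.29 to 0.75 with 1 library left out. That of the neutrophil sum, 4.10, ran from 3.10 to 4.42, with no value without WT 2 and none with a block, since WT 1 is at 0. The direction turned for *Satb1* (-0.13 to 0.045), *Cd68* (-0.78 to 0.063), *C1qc* (-0.650 to 1.504), *Tyrobp* (-0.29 to 1.36), *Cst3* (-0.10 to 0.50) and *Fcgr3* (-0.35 to 0.27, and -0.0038 without the filter), the range of the log2 fold change with 1 library left out in brackets. None of these was called in the reported fit, and the cause was not tested. Over the 24 members tested, 165 of 186 values under the other settings and 69 of 96 with a library left out kept their direction and their side of the threshold. Of the members not called, the replicate block called *S100a8* (edgeR adjusted p = 0.0136), *C1qb* (0.0117), *Cd5l* (0.0173) and *Axl* (0.0216). *Lcn2*, *C3*, *Tyrobp* and *Spi1* had no adjusted p from DESeq2. The 11 members that were not tested had too few counts to pass the filter.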

Other observations

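Among the lists of other cells, 5 of 7 NK cell genes were tested, and all 5 had a negative log2 fold change. Of these 5, 3 were called lower in cKO, where 242 of all 12403 genes tested were. *Gzma*, granzyme A, had 108, 90, 7 and 2 counts in WT 1, WT 2, cKO 1 and cKO 2 (edgeR adjusted p = 0.000783), *Eomes*, a transcription factor of cytotoxic cells, 260, 144, 58 and 80 (0.0113), and *Prf1*, perforin, 402, 264, 179 and 107 (0.0138). *Klrk1*, an activating receptor, had 21, 14, 6 and 4 (edgeR adjusted p = 0.0904). These genes are also expressed by T cells. The mast cell and basophil genes had 2, 7, 19 and 8 counts in all, most of them in *Kit*, and the platelet genes 16, 7, 28 and 18, most of them in *Itga2b*. *Tcf4*, a transcription factor of plasmacytoid dendritic cells, was higher in cKO at 33, 14, 69 and 52 counts (edgeR adjusted p = 0.028), while *Ccr9*, a chemokine receptor of those cells and of T cells, was lower at 240, 196, 98 and 72 (0.00626). The most abundant gene of that list, *Pacsin1*, had 1002, 785, 707 and 489 counts (edgeR adjusted p = 0.111). The conventional dendritic cell genes summed to 5.3, 6.9, 4.6 and 3.6 CPM, and only 1 of the 8 was tested. It was the most abundant of them, *Itgax*, an integrin chain, with 19, 23, 10 and 3 counts (edgeR adjusted p = 0.168). Its unadjusted edgeR p was under 0.05, and DESeq2 did not call it. *Cd4*, the most abundant of the T cell genes, had 8356, 5656, 6712 and 5564 counts (edgeR adjusted p = 0.869). *Cd8b1*, a chain of the CD8 co-receptor, fell from 277 and 232 counts to 144 and 106 (edgeR adjusted p = 0.0201), and *Cd8a* had 35, 29, 36 and 20.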
